A study of Mus musculus with 16 samples.

Results

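The RNA of the tibialis anterior muscle, a muscle at the front of the lower hindlimb, was compared between UBR4 mKO and WT mice at 24 months of age, with 4 samples in each group, 8 of the 16 samples of the series. These 8 samples were taken by their age and genotype labels, and the other 8, the same genotypes at 6 months of age, served for the shared estimate of the spread and for a comparison with younger muscle. All mice were labelled as male C57BL6/J. Both groups carried homozygous floxed Ubr4 alleles (UBR4 fl/fl) and received tamoxifen as young adults. The UBR4 mKO mice also carried a tamoxifen-inducible Cre under the ACTA1 promoter, which is active in skeletal muscle fibers, whereas WT mice lacked Cre. Cells of the muscle other than myofibers therefore kept Ubr4 in both groups. The samples were labelled as biological replicates, and the study describes its RNA-seq samples as muscles of independent mice, with fewer per group than the 4 deposited. Which sample, if any, it left out is not given in the sources used here.

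UBR4 is a very large ubiquitin ligase of the N-degron pathway, which recognizes destabilizing residues at the start of a protein and tags the protein with ubiquitin for degradation. It works with ubiquitin-conjugating enzymes such as UBE2B, and ubiquitinated proteins are degraded by the proteasome or, through receptors such as p62 (Sqstm1), by autophagy. In skeletal muscle, ubiquitin ligases are best known from atrophy, in which they mark proteins of the contractile apparatus for removal.

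Expression was given as TPM, a unit in which the reads of a gene are divided by its transcript length and every sample is scaled to the same sum. TPM keeps no sequencing depth, so the number of reads behind a value is unknown. The 10628 genes with a mean of at least 1 TPM over the 16 samples were tested with limma on log2(TPM + 0.1), a scale on which the change of low genes is understated. A gene was called when its Benjamini-Hochberg adjusted p over all genes tested was under 0.05, and a log2 fold change is UBR4 mKO minus WT. Within the 8 samples, log2 values correlated across genes at 0.965 to 0.993 between samples of a group. The samples are named WT-1 to WT-4 and mKO-1 to mKO-4 by the numbers of their labels, and mKO-3 is the one called the third UBR4 mKO sample.

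The third UBR4 mKO sample stood apart from the other 7. It was the lowest of the 8 samples for 42.4% of the tested genes, whereas the other samples were the lowest for 2.53% to 21.8%. It differed from the mean of the other 3 UBR4 mKO samples by more than 1 log2 unit for 667 genes, of which 623 were lower, and the corresponding number was 44 to 183 genes in the other samples. After median-of-ratios scaling it was the lowest for 29.7% and the highest for 32.8% of genes, and 389 genes were more than 1 log2 unit off, of which 313 were lower. Its deviation varied with transcript length and with GC content. In the fifth of genes with the shortest transcripts (183 to 1861 bases) its median deviation was 0.19 on the log2 scale, and in the fifth with the longest (5194 bases and more) it was -0.69. In the fifth of genes with the lowest GC content it was -0.41, and in the fifth with the highest 0.0022. Among genes with a mean of at least 5 TPM, the 5 furthest below their group included Cep85l, with 0.699 TPM in the third and 12.6 to 18.5 TPM in the other UBR4 mKO samples, and Hipk2, a kinase of stress signaling, with 1.46 against 10.8 to 17.7 TPM. The 5 furthest above included Krt18, an intermediate filament keratin (44.5 against 7.39 to 11.7 TPM), Rrad, a small GTPase (44.1 against at most 22.3 TPM), and Cpne2, a calcium-dependent membrane-binding protein (25.8 against 6.89 to 9.49 TPM). The mitochondrially encoded subunits mt-Nd4l and mt-Nd5 of complex I were also low in this sample alone. mt-Nd4l was at 6960 TPM in it and at 17600 to 19700 TPM in the other 7 samples, and mt-Nd5 was at 5990 TPM and at 11400 to 12900 TPM. Whether RNA quality or library preparation took part in this deviation was not tested. For the genes described by name, it is stated where leaving out this sample ended or added a call.

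**Figure D1:**
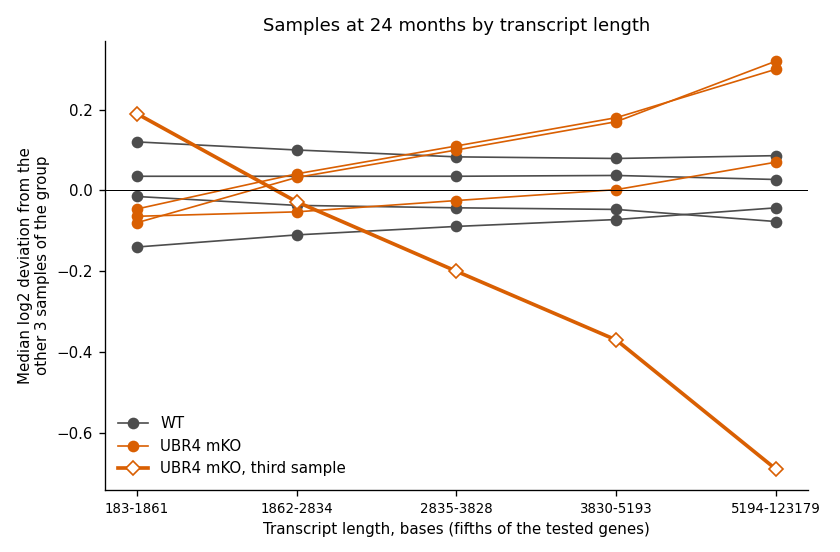
Median deviation of each 24-month sample from the mean of the other 3 samples of its group (log2 units, y axis) in 5 classes of equal size of the tested genes ordered by transcript length (bases, x axis). Lines are samples: the third UBR4 mKO sample (open diamonds) fell from 0.19 to -0.69, and since it is part of the reference of the other UBR4 mKO samples, those rise in part through it.

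The 6-month samples did not match their sex label. Xist, the RNA that coats the inactive X chromosome of female cells, was at 0.711 to 23.8 TPM in all 8 of them and at no more than 0.0252 TPM in the 8 samples at 24 months. The summed TPM of 4 Y-linked genes was 0.181 to 45.9 at 6 months and 34.6 to 59.6 at 24 months. The 24-month samples thus matched the label. The calls below rest on a spread estimated from all 16 samples. Adjusted p from a fit to the 24-month groups alone are given for most of the called genes described singly, and for few of those that are only listed.

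Ubr4, on chromosome 4 of GRCm38 from 139352609 to 139489588, was measured at 17.2, 17.0, 17.8 and 21.1 TPM in the WT samples and at 10.1, 14.6, 4.28 and 7.63 TPM in the UBR4 mKO samples. All UBR4 mKO samples lay below all WT samples, and the third was the lowest. WT samples averaged 18.3 ± 1.89 TPM (SD, n = 4), and mKO samples 9.14 ± 4.33 TPM (SD, n = 4), a ratio of 0.501. The two-sided exact permutation test gave p = 0.0286, which no comparison of 4 with 4 samples can go below. Without the third UBR4 mKO sample the ratio was 0.589. The deviation of that sample for Ubr4 was -1.26 on the log2 scale. With a transcript of 15928 bases, Ubr4 belongs to the fifth of genes with the longest transcripts, where the median deviation of that sample was -0.69. The part of this in its low Ubr4 value, and so in the ratio of 0.501, was not tested. Across all genes the log2 fold change of -1.12 (SE 0.26) was not called (limma adjusted p = 0.0598), and it was called with median-of-ratios scaling (adjusted p = 0.0281). Which exons the deletion removes was not given in the sources used here, so the remaining TPM also counts reads from any transcript left by the deletion.

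At 24 months, 67 of the 10628 genes (0.630%) were called, 46 higher (0.433%) and 21 lower (0.198%) in UBR4 mKO than in WT muscles, and 1076 (10.1%) had an unadjusted p under 0.05. Most changes were modest, with a median log2 fold change of 0.68 among the genes called higher and -0.89 among those called lower. The median over all genes was 0.013. Scaling changed the balance of the calls, since 44 genes (0.414%) were called higher and 53 (0.499%) lower with median-of-ratios scaling, 0.913% together. Leaving the mitochondrial genes out of the scale gave 33 higher (0.311%) and 29 lower (0.273%), 0.584% together. The share of TPM on the 37 mitochondrially encoded genes averaged 50.1% ± 1.85 in WT (SD, n = 4) against 48.6% ± 1.57 in mKO samples (SD, n = 4), with p = 0.229 in a two-sided exact permutation test. Without the third UBR4 mKO sample, 66 genes (0.621%) were called, 44 higher (0.414%) and 22 lower (0.207%), and 42 genes were called both ways, 62.7% of the calls with that sample and 63.6% of those without it. All 91 genes called either way kept their sign. With median-of-ratios scaling and without that sample, 53 genes (0.499%) were called higher and 77 (0.725%) lower, 1.22% together.

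The number of calls depended on other samples as well. It was 16 without WT-1, 8 without WT-3, 11 without WT-4 and 12 without mKO-4, and 39 to 66 without any of the other 4. When only the 24-month groups were fitted, 8 genes were called, all higher, and 7 of these were among the 67 (Lmcd1, Blvrb, Hspb6, Gm10282, Gm6166, Gm10036 and Fhl1). The other calls among the 67 then had adjusted p from 0.0541 (Ush1c) to 0.312 (Gm10093). Dunn's test after Kruskal-Wallis, the test named in the study's methods, called 0 genes, with 427 at an unadjusted p under 0.05. With 4 samples a group its smallest p without ties is 0.000365, and 78 genes at that p would be needed for a call, so that a count of 0 says nothing about stability.

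**Figure D2:**
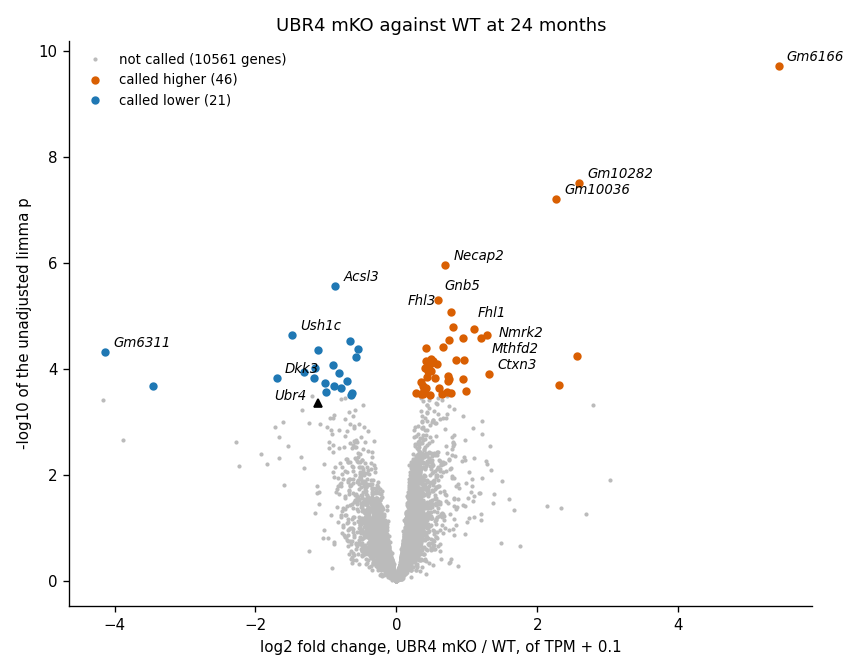
Log2 fold change of TPM + 0.1 between UBR4 mKO and WT muscles at 24 months (x axis) and -log10 of the unadjusted limma p (y axis) for the 10628 genes tested, each a point. The 46 genes called higher and 21 called lower are colored, and Ubr4 (triangle) lies just short of the calls.

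Among genes with established names, 3 were called in each of the 8 fits that left out a 24-month sample. Necap2, a protein associated with the clathrin adaptors of endocytosis, was at 7.28, 7.03, 5.56 and 6.75 TPM in WT and at 11, 10.5, 10.6 and 10.8 TPM in UBR4 mKO muscles. The groups lay clearly apart and the UBR4 mKO samples hardly differed from each other, with a log2 fold change of 0.69 (SE 0.094, adjusted p = 0.00286, at most 0.0131 without any 1 sample). Gnb5, a G protein beta subunit that pairs with regulators of G protein signaling, was at 11.8, 12.4, 13.4 and 12.9 TPM in WT and at 20.5, 17.8, 17.2 and 21.2 TPM in UBR4 mKO muscles, again without overlap (0.60, SE 0.091, adjusted p = 0.00884, at most 0.0395). Acsl3, which activates long-chain fatty acids at the endoplasmic reticulum and at lipid droplets, was lower, at 6.03, 7.76, 5.59 and 6.37 TPM in WT and at 3.39, 4.12, 2.94 and 3.51 TPM in UBR4 mKO muscles. Its log2 fold change was -0.86 (SE 0.13, adjusted p = 0.00569, at most 0.0225). With the 24-month groups alone, the adjusted p of these 3 genes was 0.0588, 0.0788 and 0.0784.

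Fhl1, Fhl3 and Lmcd1, which encode LIM domain proteins of muscle, were among the largest rises of named genes. Fhl1, a LIM protein of the sarcomere that is mutated in inherited myopathies, was at 377, 352, 330 and 332 TPM in WT and at 741, 692, 580 and 1040 TPM in UBR4 mKO muscles. Every UBR4 mKO sample exceeded every WT sample by more than the whole WT range, and the mean rose 2.19-fold (log2 fold change 1.10, SE 0.19, adjusted p = 0.0208). Its call was lost without WT-3, WT-4 or mKO-4 (adjusted p at most 0.0652) and held in the 24-month groups alone (adjusted p = 0.0388). Fhl3, a related LIM protein, was at 132, 140, 129 and 150 TPM in WT and at 284, 228, 182 and 261 TPM in UBR4 mKO muscles (0.78, SE 0.12, adjusted p = 0.0127). The third UBR4 mKO sample was the lowest of its group, the log2 fold change was 0.90 without it (adjusted p = 0.000783), and among the fits without 1 of the 8 samples the call was lost only without WT-3 (adjusted p = 0.0544). In the 24-month groups alone its adjusted p was 0.0811. Lmcd1, a LIM protein of striated muscle, was at 122, 106, 118 and 118 TPM in WT and at 182, 198, 201 and 232 TPM in UBR4 mKO muscles (0.80, SE 0.14, adjusted p = 0.0208, lost without WT-3, WT-4 or mKO-4, at most 0.0613). It was called in the 24-month groups alone as well (adjusted p = 0.0220).

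Among the 18 stress-responsive sarcomere and cytoskeleton genes tested, Fhl1 was the only gene called, and the median log2 fold change was 0.040. Without the third UBR4 mKO sample, Itga7, the integrin that binds laminin at the myofiber surface, was called too (log2 fold change 0.49, adjusted p = 0.0391). Krt8, a keratin, and Ankrd2, a stretch-responsive ankyrin repeat protein, had log2 fold changes of 1.34 and 0.81 without being called (adjusted p = 0.237 and 0.130). Krt8 was at 15.8 TPM in mKO-3 and at 2.66 to 5.71 TPM in the other UBR4 mKO samples. Smtnl1, a smoothelin-like regulator of muscle contraction, was at 26.2 to 32.3 TPM in WT and at 39.6 to 58.2 TPM in UBR4 mKO muscles (0.78, SE 0.17, adjusted p = 0.0491). This call was lost without any 1 sample other than mKO-2 (adjusted p at most 0.162). Sbk2, a kinase expressed in muscle, was at 33.9 to 65.3 TPM in WT and at 76.1 to 104 TPM in UBR4 mKO muscles (0.97, SE 0.19, adjusted p = 0.0285), and lost its call without WT-1, WT-3, mKO-1 or mKO-4 (at most 0.124). Sepn1, the endoplasmic reticulum selenoprotein N that is mutated in a congenital myopathy, was at 1.24 to 2.04 TPM in WT and at 2.83 to 3.47 TPM in UBR4 mKO muscles (0.84, SE 0.16, adjusted p = 0.0285), a call that held without WT-2 or mKO-3 and was lost without any other sample (at most 0.101). In the 24-month groups alone, the adjusted p of Smtnl1, Sbk2 and Sepn1 was 0.0808, 0.196 and 0.153.

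**Figure D3:**
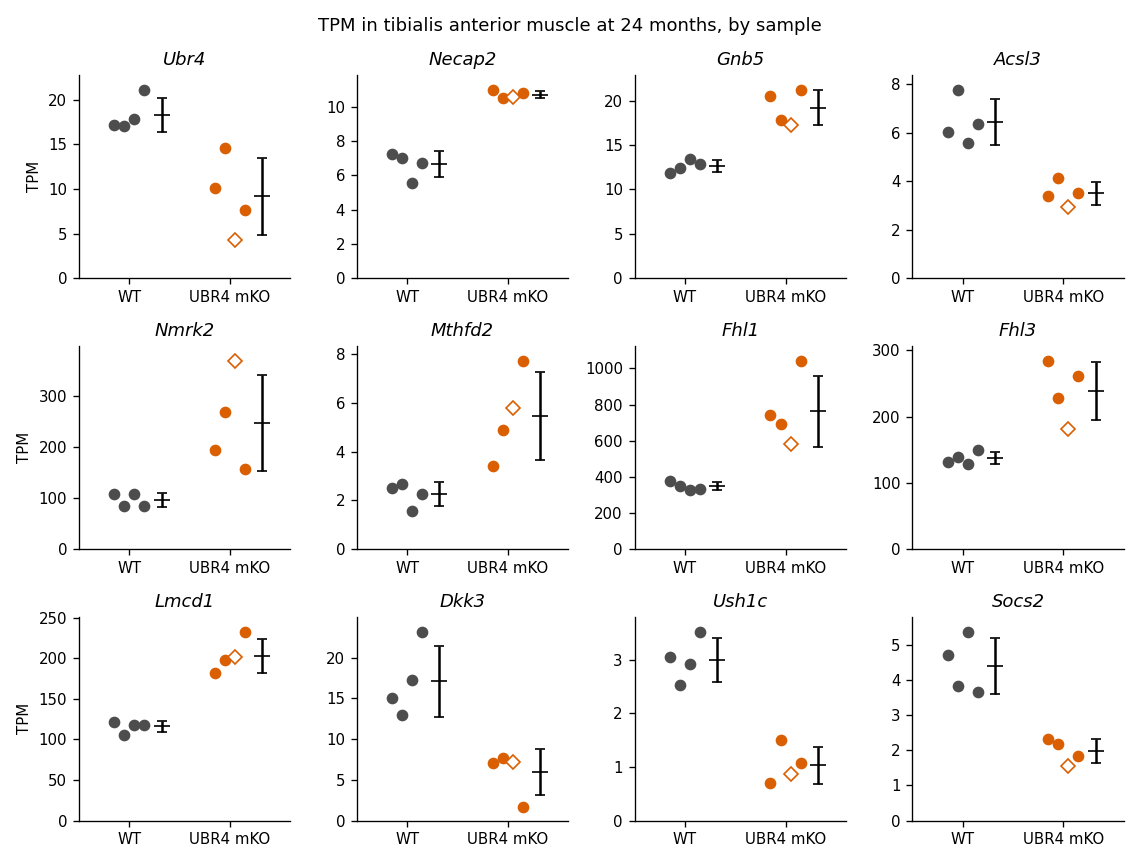
TPM (y axes, from 0) of 12 genes in the 4 WT and 4 UBR4 mKO samples at 24 months. Points are samples, the open diamond is the third UBR4 mKO sample, and the bar at the right of each group is the mean ± SD of 4. The groups do not overlap for any of the 12 genes.

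Nmrk2 and Mthfd2, enzymes of NAD and one-carbon metabolism, had the largest rises of the called list members. Nmrk2, a kinase of muscle that turns nicotinamide riboside into a precursor of NAD, was at 109, 85.2, 108 and 84.2 TPM in WT and at 194, 269, 368 and 157 TPM in UBR4 mKO muscles. The groups were separate, the UBR4 mKO samples varied widely, and the third was the highest. The mean rose 2.57-fold, and 2.15-fold without the third sample (log2 fold change 1.29, SE 0.23, adjusted p = 0.0213, and 1.08 with adjusted p = 0.0262). The call was lost without WT-3 or WT-4 (at most 0.0641), and without mKO-3 when the samples were also scaled by median of ratios (adjusted p = 0.0762). In the 24-month groups alone the adjusted p was 0.101. Of the 16 genes of NAD synthesis and use, Nmrk2 was the only one called, and their median log2 fold change was 0.078. Nnmt, which methylates nicotinamide, had 0.69 (adjusted p = 0.108).

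Mthfd2, a mitochondrial enzyme of folate one-carbon metabolism, was at 2.53, 2.67, 1.57 and 2.25 TPM in WT and at 3.43, 4.90, 5.78 and 7.71 TPM in UBR4 mKO muscles. There was no overlap, and mKO-4 was the highest (1.21, SE 0.21, adjusted p = 0.0213). The call was lost without WT-3, WT-4 or mKO-4 (at most 0.0852), and the adjusted p in the 24-month groups alone was 0.157. Of the 15 tested genes of the integrated stress response and of serine and one-carbon synthesis, Mthfd2 was the only one called, and their median was -0.025. Asns, which makes asparagine, had 0.44 and Chac1, which degrades glutathione, had -0.44 (adjusted p = 0.610 and 0.565).

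The bases before the RefSeq transcription start of these 2 genes (GRCm38.p6) are shown because the genes led the lists they belong to. Each sequence is given 5′ to 3′ on the minus strand, on which both genes lie, and capitals mark CCAAT or TATAAA in either orientation.
Mthfd2, chr6:83317605-83317854: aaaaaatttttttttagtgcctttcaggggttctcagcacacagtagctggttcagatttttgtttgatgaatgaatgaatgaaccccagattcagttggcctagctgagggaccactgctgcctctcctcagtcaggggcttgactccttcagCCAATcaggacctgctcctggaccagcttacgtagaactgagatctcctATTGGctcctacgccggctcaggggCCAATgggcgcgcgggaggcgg
Nmrk2, chr10:81202038-81202287: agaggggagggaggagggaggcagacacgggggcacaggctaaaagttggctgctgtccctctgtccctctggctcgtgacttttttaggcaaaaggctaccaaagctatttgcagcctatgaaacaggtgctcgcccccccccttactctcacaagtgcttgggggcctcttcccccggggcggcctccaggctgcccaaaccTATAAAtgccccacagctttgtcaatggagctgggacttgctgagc
The letters TGATGNAA, the core of the element bound by C/EBP and ATF proteins, were searched on both strands and were not found in either window. They occur in 3.45% of the 32851 RefSeq promoter windows of this length. CCAAT and TATAAA, chosen after the sequences were seen, do not overlap each other. The Mthfd2 window held CCAAT at 3 places, first bases -96, -47 and -22 from the start, and 2.79% of all windows held at least 3. The Nmrk2 window held TATAAA once, at -46, and 12.4% of all windows held it at least once.

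Dkk3, Socs2, Igfals and Kazald1 were called lower in UBR4 mKO muscles. Dkk3, a secreted protein of the Dickkopf family, was at 15.0, 13, 17.2 and 23.1 TPM in WT and at 7.10, 7.63, 7.21 and 1.67 TPM in UBR4 mKO muscles. mKO-4 was far below the other 3 UBR4 mKO samples, all of which lay below WT (log2 fold change -1.70, SE 0.35, adjusted p = 0.0377). The call was lost without WT-1, WT-3 or WT-4 (at most 0.130). Dkk3 was the only gene called among 9 tested genes of secreted WNT antagonists and WNT targets, which had a median of -0.11. Socs2, an inhibitor of growth hormone receptor signaling, was at 4.71, 3.82, 5.36 and 3.66 TPM in WT and at 2.31, 2.19, 1.56 and 1.84 TPM in UBR4 mKO muscles (-1.11, SE 0.21, adjusted p = 0.0251, lost without WT-1, WT-3, WT-4 or mKO-4, at most 0.111). Igfals, which holds insulin-like growth factors in a complex with their binding proteins, was at 1.29 to 2.09 TPM in WT and at 0.720 to 0.911 TPM in UBR4 mKO muscles (-1.01, SE 0.21, adjusted p = 0.0408). Kazald1, a secreted protein related to the insulin-like growth factor binding proteins, was at 3.45 to 5.68 TPM in WT and at 2.2 to 3.04 TPM in UBR4 mKO muscles (-0.89, SE 0.17, adjusted p = 0.0298). The calls of Igfals and Kazald1 were lost without any of 6 and 5 of the 8 samples (at most 0.146 and 0.130), WT-1, WT-3 and WT-4 among them. In the 24-month groups alone, Dkk3, Socs2, Igfals and Kazald1 had adjusted p of 0.277, 0.0588, 0.106 and 0.130.

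The other named genes that fell have different roles. Ush1c, the scaffold protein harmonin, was at 3.04, 2.52, 2.92 and 3.51 TPM in WT and at 0.702, 1.5, 0.866 and 1.07 TPM in UBR4 mKO muscles (-1.49, SE 0.26, adjusted p = 0.0213, lost without WT-1, WT-3, WT-4 or mKO-4, at most 0.0652). Nabp1, which binds single-stranded DNA, had -0.99 (SE 0.22, adjusted p = 0.0491), with 11 to 21.8 TPM in WT and 4.69 to 10.4 TPM in UBR4 mKO muscles. Trp63, a transcription factor of the p53 family, had -0.88 (SE 0.19, adjusted p = 0.0438), with 2.49 to 4.52 TPM in WT and 1.70 to 1.89 TPM in UBR4 mKO muscles. Lrp2bp had -1.15 (SE 0.23, adjusted p = 0.0324) and Ccdc146 had -1.17 (SE 0.24, adjusted p = 0.0377). The call of Trp63 was lost without any 1 of the 8 samples (at most 0.126), those of Nabp1 and Lrp2bp without any of 6 samples (at most 0.148 and 0.133), and that of Ccdc146 without any of 4 (at most 0.134). Lrp2bp and Trp63 were not called without the third UBR4 mKO sample (adjusted p = 0.0570 and 0.0585), and Nabp1 was not called with median-of-ratios scaling (adjusted p = 0.0504). In the 24-month groups alone, Nabp1, Trp63, Lrp2bp and Ccdc146 had adjusted p of 0.277, 0.142, 0.0666 and 0.230.

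Another 4 rises were among the largest of named genes. Ctxn3, a small membrane protein, was at 40.0, 51.6, 27.7 and 41.8 TPM in WT and at 116, 60.2, 85.1 and 153 TPM in UBR4 mKO muscles, the largest rise of a called gene with an established name (1.31, SE 0.27, adjusted p = 0.0363). Serpinb1a, an inhibitor of neutrophil proteases, was at 1.97 to 3.21 and 3.94 to 7.97 TPM (0.95, SE 0.20, adjusted p = 0.0377). Ncmap, a membrane protein known from myelin, was at 0.488 to 0.639 and 1.15 to 1.32 TPM (0.95, SE 0.17, adjusted p = 0.0213), and Cd248, a surface protein of fibroblasts and pericytes, at 1.00 to 1.18 and 1.41 to 3.43 TPM (1.00, SE 0.22, adjusted p = 0.0482). Each of these calls was lost without at least 3 of the 8 samples, WT-3 and WT-4 in every case, with adjusted p up to 0.136 for Ctxn3, 0.146 for Serpinb1a, 0.0852 for Ncmap and 0.137 for Cd248. In the 24-month groups alone it was 0.181, 0.248, 0.101 and 0.277, in the same order.

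The naming rule left out 37 called genes, 26 higher and 11 lower, which are named here after their values were seen. Higher, with established names, were Mustn1, Evi2a, Alad, Cdc42ep2, Rnf114, S100a1, Ech1, Eci1 and Phyh, which were also called without the third UBR4 mKO sample. S100a6, Plekho1, Blvrb, Aldh1l1, Dhrs11, Ppif, Lysmd2, Mrpl47, Ptp4a3, Ppib, Coq7, Mgst3 and Atp5g3 were higher with all samples and not called without it (adjusted p from 0.0501 for Ppif to 0.0947 for Lysmd2). Ech1 and Eci1, enzymes of fatty acid oxidation, and the mitochondrial proteins Ppif, Atp5g3, Coq7, Mrpl47 and Mgst3 were not called with median-of-ratios scaling (adjusted p from 0.0706 for Ppif to 0.244 for Mgst3), whereas Phyh, a peroxisomal enzyme, was (adjusted p = 0.0354). S100a1, S100a6, Plekho1, Blvrb, Lysmd2 and Ppib also lost their call with that scaling (adjusted p from 0.0646 for S100a6 to 0.183 for Ppib). Atp5g3 had the smallest change of them, with 439 to 474 TPM in WT and 518 to 598 TPM in UBR4 mKO muscles (log2 fold change 0.29, SE 0.063, adjusted p = 0.0491, and 0.0762 without the third UBR4 mKO sample). The lower ones with established names were Cmbl and Tmem222, called also without the third UBR4 mKO sample, and Knop1, Efcab6, Adgrl1 and Lrtm1, which were not (adjusted p from 0.0585 for Lrtm1 to 0.0874 for Knop1). The other 9 of the 37 have placeholder names. Higher were Gm6594 (2.57, adjusted p = 0.0285), Gm10093 (2.31, adjusted p = 0.0438), Gm44386 (0.67, adjusted p = 0.0246) and Gm26722 (0.57, adjusted p = 0.0298), of which Gm10093 and Gm26722 were not called without the third UBR4 mKO sample (adjusted p = 0.0762 and 0.0515) and Gm44386 not with median-of-ratios scaling (adjusted p = 0.0708). Lower were Gm16534 (-1.31, adjusted p = 0.0347, and 0.00216 without the third UBR4 mKO sample), 2310065F04Rik (-0.65, adjusted p = 0.0215), 0610040J01Rik (-0.70, adjusted p = 0.0390) and the pseudogenes Gm6311 and Rps2-ps6. Of all 67 called genes, the groups did not overlap for 64, whereas the groups did not overlap for 5.80% of all genes tested, 4.29% with higher and 1.51% with lower values in UBR4 mKO muscles. The 67 were called on these same values, so the shares cannot be compared.

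The largest log2 fold changes of all were those of pseudogenes and genes with placeholder names whose sequence is shared with other genes. They are named here as kept in every leave-one-out fit, apart from Gm6311 and Rps2-ps6, which were chosen after their values were seen. Gm6166, annotated as a processed pseudogene on chromosome 9, was listed at 0 in all 4 WT samples and at 1.37, 8.69, 4.60 and 5.54 TPM in UBR4 mKO muscles (adjusted p = 2.0e-06). Of its words of 50 bases, 51.1% occur in transcripts of Fabp5, which itself was at 3.42 to 4.34 TPM in WT and at 3.65 to 6.91 TPM in UBR4 mKO muscles (adjusted p = 0.557). Gm10282, which shares 74.0% of its words with Hmgn2, was at 2.54, 3.40, 0.897 and 1.10 TPM in WT and at 12, 9.96, 10.8 and 10.8 TPM in UBR4 mKO muscles (2.59, SE 0.27, adjusted p = 0.000161). Hmgn2, a nucleosome-binding protein, was at 11.2 to 19.1 TPM in WT and at 8.05 to 12.9 TPM in UBR4 mKO muscles (-0.57, adjusted p = 0.146). Gm10036, which shares 66.4% of its words with the ribosomal protein gene Rpl11, was at 0.704 to 2.36 TPM in WT and at 6.22 to 7.28 TPM in UBR4 mKO muscles (2.27, SE 0.25, adjusted p = 0.000218). These 3 were called in every fit that left out a 24-month sample and in the 24-month groups alone. Gm6311 and Rps2-ps6, processed pseudogenes that share 72.5% and 67.5% of their words with the pseudogene Rps2-ps10, fell (-4.13 and -3.46, adjusted p = 0.0252 and 0.0438, and 0.0585 for Rps2-ps6 without the third UBR4 mKO sample), and the WT samples of Gm6311 varied from 12.6 to 120 TPM. How reads shared by near-identical copies were divided was not given in the sources used here, so the source of these reads is uncertain. Hmgn2 and Rpl11 lie on chromosome 4, in the window around Ubr4 that is described at the end.

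Of the 707 genes on the 39 gene lists examined, 632 were tested and 7 were called (1.11%, beside 0.630% of all genes). No list held more than 1 called gene with all samples on the TPM scale, whereas with median-of-ratios scaling the stress-responsive sarcomere and cytoskeleton genes held 2, Fhl1 (adjusted p = 0.00549) and Itga7 (adjusted p = 0.0146). The genes of the pathway in which UBR4 works had small differences. Of the 14 N-degron recognins and UBR4 partners, 0 were called at 24 months with limma, 1 had an unadjusted p under 0.05, and the median log2 fold change was -0.024. Rbbp4, a histone-binding protein, had 0.30 (adjusted p = 0.221, and 0.0433 with median-of-ratios scaling). Rbbp7 had 0.16, Hat1, a histone acetyltransferase, 0.089, Stub1, a ligase that works with chaperones, 0.14, and Ube2b 0.0047, with adjusted p of 0.665, 0.889, 0.737 and 0.997. Ube2b was at 345 to 402 TPM in WT and at 350 to 398 TPM in UBR4 mKO muscles, ranges that nearly coincide.

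Proteasome and autophagy genes had small differences as well. Of the 35 proteasome subunits, 0 were called and 1 had an unadjusted p under 0.05, with a median of 0.085, or 0.028 without the third UBR4 mKO sample. Above 0 were 32 of them, or 25 without that sample. Psme1, an activator subunit, had the largest value at 0.36 (adjusted p = 0.197). Of the 27 autophagy genes, 0 were called and 2 had an unadjusted p under 0.05. Map1lc3a, which encodes an LC3 protein of autophagosomes, was at 271 to 342 TPM in WT and at 339 to 446 TPM in UBR4 mKO muscles (0.32, SE 0.12, adjusted p = 0.304), and Sqstm1 was at 266 to 383 and 300 to 344 TPM (0.042, SE 0.11, adjusted p = 0.975). Of the 18 atrophy ligases and FoxO targets, 0 were called, 2 had an unadjusted p under 0.05, and 15 had a log2 fold change below 0 with a median of -0.18. Of all 10628 genes, 5640 were above 0. Without the third UBR4 mKO sample 6 of the 18 were above 0 and their median was -0.14. With all samples, the most negative of the 18 were the metallothioneins Mt2 (-1.09) and Mt1 (-0.92) and the transcription factor Foxo1 (-0.75), with adjusted p of 0.438, 0.524 and 0.294. In these 3 genes WT-2 stood far above the other WT samples, with 414 TPM of Mt2 against 75.2 to 139 TPM. The same sample was the highest in Atf3 (39.7 against 8.10 to 10.9 TPM) and Nr4a3 (37.3 against 3.38 to 5.88 TPM), immediate early genes, of which 0 of 19 were called and 6 had an unadjusted p under 0.05.

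Of 22 cytosolic chaperones, 1 was called. Hspb6, a small heat shock protein of muscle, was at 434, 436, 430 and 433 TPM in WT and at 570, 673, 661 and 629 TPM in UBR4 mKO muscles. The WT samples were nearly equal and all UBR4 mKO samples lay above them (0.54, SE 0.11, adjusted p = 0.0377). It was called in the 24-month groups alone (adjusted p = 0.0352) but not without the third UBR4 mKO sample (adjusted p = 0.0585) or with median-of-ratios scaling (adjusted p = 0.0900), and the call was lost without any 1 sample other than mKO-1 (at most 0.130). Hspb7, a related protein, had 0.45 (adjusted p = 0.500). Of 18 endoplasmic reticulum stress genes, 0 were called, 0 had an unadjusted p under 0.05 and all lay between -0.18 and 0.15.

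Of the 40 nuclear subunits of the respiratory chain and ATP synthase, 39 had a log2 fold change above 0, beside 5640 of all 10628 genes. Their median was 0.16, and 19 had an unadjusted p under 0.05, beside 10.1% of all genes. Only Cox7a1, the muscle form of a subunit of cytochrome c oxidase, was called, at 855, 904, 860 and 876 TPM in WT and at 1010, 1090, 1400 and 1150 TPM in UBR4 mKO muscles (0.40, SE 0.079, adjusted p = 0.0324). The third UBR4 mKO sample was the highest, and the log2 fold change without it was 0.31 (adjusted p = 0.0249). The call was lost without WT-1, WT-3, WT-4 or mKO-4 (at most 0.124) and with median-of-ratios scaling (adjusted p = 0.237), and its adjusted p was 0.255 in the 24-month groups alone. Without the third UBR4 mKO sample the list's median was 0.10, and 0.021 when the samples were also scaled by median of ratios. The third UBR4 mKO sample lay above its group for this list by a median of 0.27, for proteasome subunits by 0.23 and for cytosolic ribosomal proteins by 0.33. Of the 76 ribosomal protein genes, 0 were called, 8 had an unadjusted p under 0.05, and the median of 0.094 was 0.014 without that sample. Of the 13 mitochondrially encoded mRNAs, 0 were called and 2 had an unadjusted p under 0.05. Of 25 genes of lipid storage and fatty acid oxidation, 0 were called, 9 had an unadjusted p under 0.05 and the median was 0.22. Of 17 genes of glycolysis and glycogen, 0 were called, 6 had an unadjusted p under 0.05 and the median was 0.11.

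Of 11 slow and 14 fast myofiber genes, 0 were called, and 1 and 3 had an unadjusted p under 0.05. The summed level of the slow genes was 4680 to 5340 TPM in WT and 5650 to 7300 TPM in UBR4 mKO muscles, without overlap and with the third UBR4 mKO sample the highest. Most of it was Mb, the oxygen-binding protein myoglobin, at 4570 to 5240 TPM in WT and at 5490, 5680, 7210 and 5870 TPM in UBR4 mKO muscles (0.32, SE 0.093, adjusted p = 0.164, and 0.24 with adjusted p = 0.243 without the third sample). The summed level of the fast genes overlapped between groups (106000 to 118000 and 105000 to 122000 TPM). Myh1, the myosin of type 2X fibers, was at 2120 to 2570 TPM in WT and at 2680 to 3930 TPM in UBR4 mKO muscles (0.43, SE 0.12, adjusted p = 0.158), and Myh4, the myosin of type 2B fibers, at 10700 to 13300 and 9110 to 11900 TPM (-0.27, SE 0.11, adjusted p = 0.363). Of 10 tested genes of muscle regeneration and 17 of denervation and the neuromuscular junction, 0 were called and 0 had an unadjusted p under 0.05. Actc1, the cardiac actin that regenerating fibers express, was at 61.3 to 227 and 33.1 to 89.9 TPM (-1.16, SE 0.56, adjusted p = 0.511). In growth signaling, with 0 of 24 called and 3 at an unadjusted p under 0.05, Mstn, which encodes the growth inhibitor myostatin, was at 16.2 to 25.9 TPM in WT and at 8.31 to 16.8 TPM in UBR4 mKO muscles (-0.70, SE 0.22, adjusted p = 0.205).

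Genes of other cell types were measured for the cells the muscle holds beside myofibers. In whole muscle, fewer cells of a type and less RNA per cell cannot be told apart. Leukocyte markers had a median of 0.91, or 1.18 without the third UBR4 mKO sample, and all 14 tested were above 0, beside 5640 of all 10628 genes. Of these markers 0 were called, and 9 had an unadjusted p under 0.05, beside 10.1% of all genes. Their summed level was 71.5 to 169 TPM in WT and 175 to 523 TPM in UBR4 mKO muscles, without overlap and with mKO-2 the highest. Lyz2, a lysozyme of macrophages, was at 22.7 to 48.9 TPM in WT and at 58.6 to 255 TPM in UBR4 mKO muscles (1.29, SE 0.41, adjusted p = 0.217), and Cd68, a macrophage lysosomal protein, at 1.32 to 4.11 and 4.38 to 14.8 TPM (1.21, SE 0.43, adjusted p = 0.288). Serpinb1a and Evi2a are expressed in blood leukocytes. Among the UBR4 mKO samples both were lowest in mKO-3, at 3.94 and 3.22 TPM, where the leukocyte sum was also lowest, at 175 TPM. Serpinb1a was at 4.64 TPM in mKO-2 and highest in mKO-4, at 7.97 TPM, where the leukocyte sum was 181 TPM, and Evi2a was at 3.22 to 3.95 TPM in all UBR4 mKO samples. The part of leukocyte RNA in their rise was not tested.

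Adipocyte markers had a median of 1.09 over 5 tested genes, or 1.07 without the third UBR4 mKO sample, 4 had an unadjusted p under 0.05, and their summed level overlapped between groups (2460 to 2880 and 2460 to 3660 TPM). Fabp4, a fatty acid carrier of adipocytes, macrophages and endothelial cells, was the only one called, at 274, 261, 221 and 208 TPM in WT and at 331, 297, 334 and 294 TPM in UBR4 mKO muscles (0.39, SE 0.084, adjusted p = 0.0474). It was not called without the third UBR4 mKO sample (adjusted p = 0.0770), nor without WT-3, WT-4 or any other UBR4 mKO sample (at most 0.173), with median-of-ratios scaling (adjusted p = 0.156) or in the 24-month groups alone (adjusted p = 0.277). The defining marker Adipoq, the hormone adiponectin, was at 0.821 to 2.59 TPM in WT and at 1.13, 3.23 and 4.73 TPM in mKO-2, mKO-4 and mKO-3, with mKO-1 the highest (1.19, SE 0.47, adjusted p = 0.369). Cfd, the adipocyte-secreted complement factor D, was at 5.73 to 15.2 TPM in WT and at 51.5, 9, 29.5 and 23.3 TPM in UBR4 mKO muscles (1.27, SE 0.40, adjusted p = 0.213, and 0.0323 without mKO-2), and Cidec, a protein of lipid droplets, at 0.662 to 1.24 and at 4.74, 0.598, 1.77 and 2.28 TPM (1.09, SE 0.47, adjusted p = 0.422). In all 3 genes mKO-1 was the highest and mKO-2 lay within the range of WT or below it. Fibroblast markers had a median of 0.52, with 0 of 12 called, 6 at an unadjusted p under 0.05 and summed levels of 341 to 811 and 556 to 1010 TPM. Collagens, laminins and matrix proteins, which fibroblasts make, had a median of 0.22 with 0 of 25 called and 3 at an unadjusted p under 0.05. Their median was 0.35 without the third UBR4 mKO sample, in which the list was lower than in its group by a median of 0.44. Cd248 rose in the same muscles, and the part of fibroblast RNA in its rise was not tested.

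Tendon markers (7 tested, median -0.65) and satellite cell markers (4 tested, median -0.39) were below WT, with 0 called and 2 at an unadjusted p under 0.05 in each list. Chodl had the largest difference among satellite cell markers, at 2.88 to 3.40 TPM in WT and at 1.91 to 2.24 TPM in UBR4 mKO muscles (-0.59, SE 0.14, adjusted p = 0.0716). It was called lower with median-of-ratios scaling (adjusted p = 0.0340, and 0.0275 without the third UBR4 mKO sample), whereas at 6 months its log2 fold change was 0.68 (interaction adjusted p = 0.00234). WT-2 had the highest summed level of tendon markers, 169 TPM against 69.8 to 110 TPM in the other samples. Endothelial, smooth muscle and Schwann cell markers had medians between -0.089 and 0.019, with 0 called of 25 tested and 1 at an unadjusted p under 0.05. Interferon-stimulated genes, with 0 of 24 called and 4 at an unadjusted p under 0.05, had a median of -0.36 that was -0.12 without the third UBR4 mKO sample. The remaining lists (p53 targets and senescence, circadian clock, proliferation, myofibers, lymphocytes and plasma cells, blood, Y-linked genes) held 0 called genes and 9 at an unadjusted p under 0.05. Cdkn2b, a cell cycle inhibitor that rises in senescence, was at most 1.20 TPM in WT and at least 1.6 TPM in UBR4 mKO muscles (0.73, SE 0.18, adjusted p = 0.0788), and Ighm, an immunoglobulin heavy chain, at 84.5 to 173 and 23.5 to 110 TPM (-1.60, SE 0.41, adjusted p = 0.0940).

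**Figure D4:**
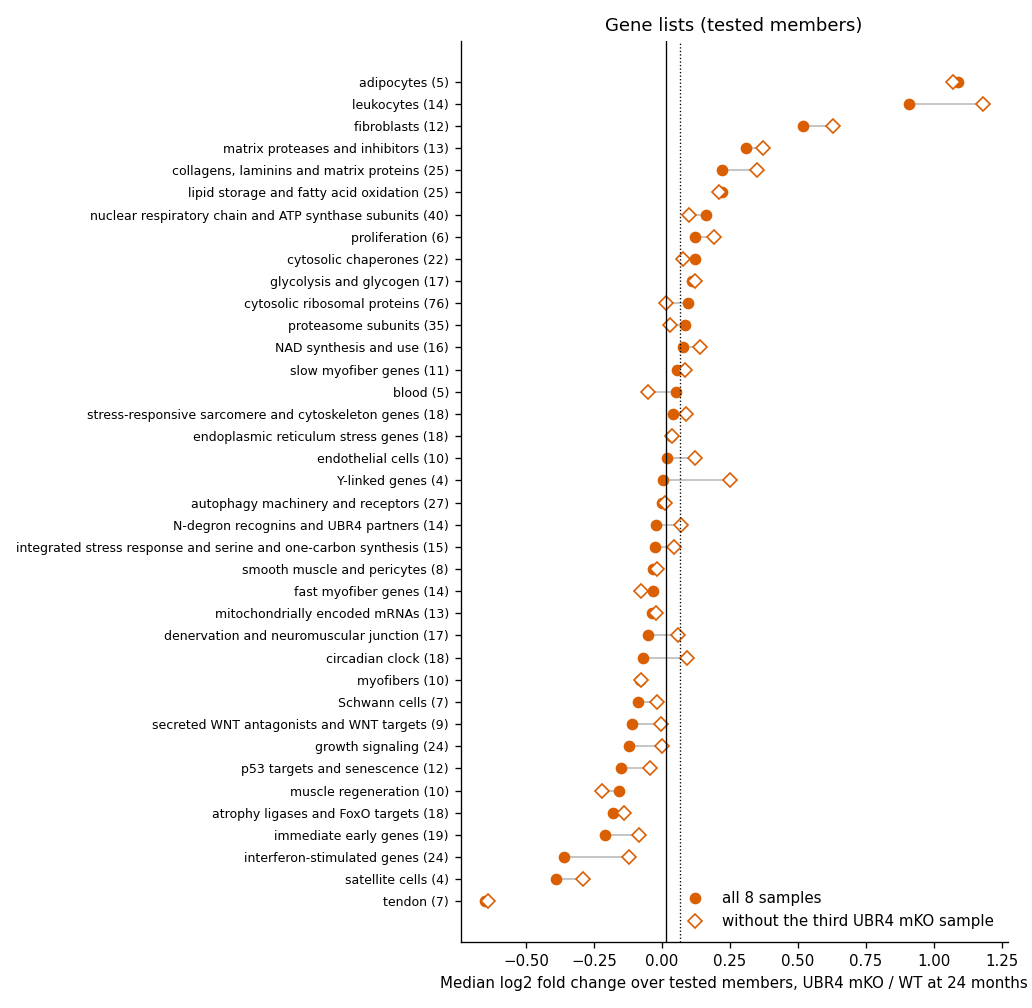
Median log2 fold change over the tested members of each gene list with at least 4 tested (x axis), with all 8 samples (filled circles) and without the third UBR4 mKO sample (open diamonds). The number of tested members is in brackets, and the solid and dotted lines are the medians of all genes, 0.013 and 0.067. Adipocytes, leukocytes and fibroblasts lie highest and tendon lowest.

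Leaving out the third UBR4 mKO sample added 24 called genes and removed 25. Lnpep, an aminopeptidase that travels with the glucose transporter GLUT4, was at 1.59, 1.70, 1.44 and 2.84 TPM in WT and at 10.3, 5.72, 0.602 and 9.05 TPM in UBR4 mKO muscles. The third sample was the lowest of the 8 and the other 3 the highest, so that the log2 fold change was 1.20 with it (adjusted p = 0.562) and 2.09 without it (adjusted p = 0.0207). Adamts5, a protease of cartilage and muscle matrix proteoglycans, was at 1.62 to 2.13 TPM in WT and at 5.40, 3.52, 2.06 and 4.25 TPM in UBR4 mKO muscles (0.95 with adjusted p = 0.0831, and 1.21 with adjusted p = 0.00866). Mmp14, a membrane-bound matrix metalloprotease, was at 4.12 to 4.61 TPM in WT and at 7.38, 7.12, 4.47 and 6.13 TPM in UBR4 mKO muscles (0.62 without the third sample, adjusted p = 0.0363). These were the 2 genes called without that sample among 13 tested matrix proteases and inhibitors, and 0 were called with it on the TPM scale. Htra3, a secreted serine protease, was at 3.74 to 6.66 TPM in WT and at 11.5, 9.10, 7.82 and 7.15 TPM in UBR4 mKO muscles (0.75, SE 0.18, adjusted p = 0.0626), and was called with median-of-ratios scaling of all samples (adjusted p = 0.0377) and without WT-2 (adjusted p = 0.0346). Cpne2 and Gdf5, a growth factor of the BMP family, were lower in the other 3 samples than in WT (-1.11 and -1.63 without the third sample, adjusted p = 0.0327 and 0.0207). Lnpep, Mmp14, Gdf5 and Itga7 were chosen after their values were seen. Without this sample the median log2 fold change over genes was 0.056 in the fifth with the shortest and 0.099 in the fifth with the longest transcripts, and with it 0.10 and -0.070.

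The effect at 24 months was set beside that at 6 months, measured in other mice. At 6 months 44.9% of genes were called, 43.7% higher and 1.15% lower, and the median log2 fold change of all genes was 0.33, so that the same sign in a gene that was higher says little. Of the 46 genes higher at 24 months, 34 were also higher at 6 months, 0 were lower and 12 were not called. Of the 21 genes lower at 24 months, 5 were also lower at 6 months, 3 were higher and 13 were not called. The 5 were Dkk3 (-1.33 at 6 months), Kazald1 (-1.08), Socs2 (-0.55) and the transcripts 2310065F04Rik and 0610040J01Rik (-0.87 and -0.74). Nmrk2, Fhl1 and Lmcd1 had almost the same log2 fold change at both ages (1.09, 1.19 and 0.82 at 6 months), and that of Ubr4 was -1.12 at each.

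For 16 of the 67 genes the effect differed between the ages by the interaction test, beside 500 of all genes (4.70%). The 67 were selected for their difference at 24 months, which is a term of the interaction, so that the shares cannot be compared. For 487 of the 500 the effect was lower at 24 months. With median-of-ratios scaling 211 genes were called, 103 of them lower at 24 months. The genes called lower at 24 months and higher at 6 months were Nabp1 (1.71 at 6 months, interaction adjusted p = 0.000435), Ush1c (0.80, adjusted p = 0.00261) and Trp63 (0.74, adjusted p = 0.00332). Acsl3 had 0.31 at 6 months without being called (interaction adjusted p = 0.00210). Serpinb1a rose at both ages, by 3.14 at 6 months and 0.95 at 24 months (adjusted p = 0.000597). Ctxn3 and Ncmap had -0.15 and -0.13 at 6 months and were called higher than WT at 24 months alone, with interaction adjusted p of 0.0381 and 0.0187. Ncmap averaged 1.24 TPM in UBR4 mKO muscles at 24 months, near the 1.17 (WT) and 1.07 (UBR4 mKO) at 6 months. Its WT muscles at 24 months were the low group, at 0.596 TPM. Ctxn3 averaged 104 TPM in UBR4 mKO and 40.3 TPM in WT muscles at 24 months, against 24.0 and 26.5 TPM at 6 months. The 6-month samples differed in Xist and Y-linked genes as given above, and the part of this in the differences between the ages was not tested.

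**Figure D5:**
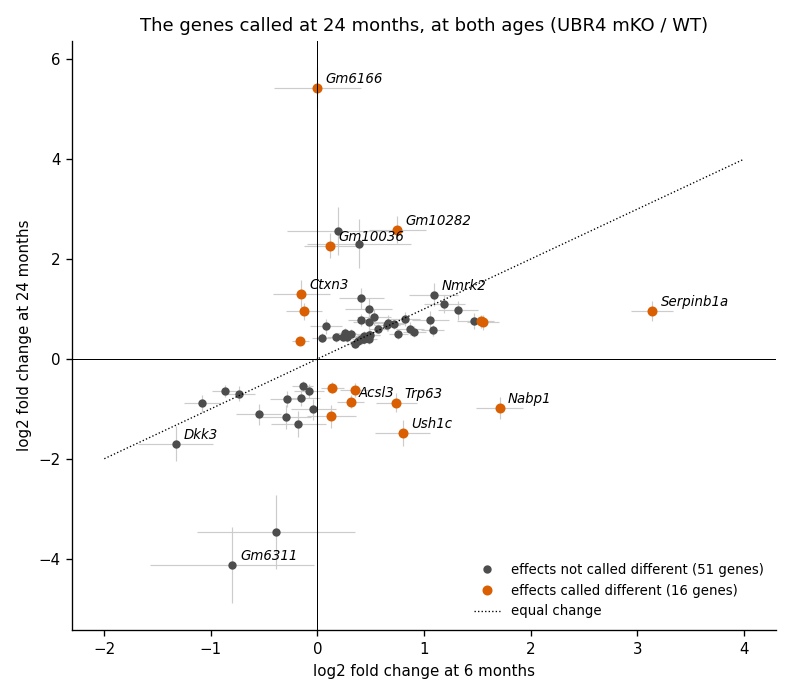
Log2 fold change between UBR4 mKO and WT muscles at 6 months (x axis) and at 24 months (y axis) for the 67 genes called at 24 months, with SE bars from limma. The 16 genes whose effect differed between the ages are in orange, and the dotted line marks equal change. Nabp1, Ush1c and Trp63 lie to the right of 0 at 6 months and below 0 at 24 months.

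Among the other genes that the study names beside its mouse data, 0 were called at 24 months. The study reports them as proteins that UBR4 loss changed in young muscle, and describes such changes as diminished in old age. The values here are of RNA. Esr1, the estrogen receptor, was at 48.0, 24.1, 61.0 and 51.3 TPM in WT and at 79.5, 16.4, 53.6 and 115 TPM in UBR4 mKO muscles, with full overlap (0.29, SE 0.41, adjusted p = 0.922). Its log2 fold change at 6 months was 4.23. Ces2c, a carboxylesterase, was at 4.78 to 14.4 and 2.77 to 10.5 TPM (-0.72, SE 0.36, adjusted p = 0.522), and Aif1l, an actin-bundling protein, at 4.30 to 11.1 and 3.98 to 12.5 TPM (-0.13, adjusted p = 0.966), against 3.39 and 2.18 at 6 months. Itgb1bp2, the chaperone-like muscle protein melusin, had 0.12 (adjusted p = 0.845) against 1.12 at 6 months. Dym had -0.13, Asb2, a muscle ubiquitin ligase subunit, -0.094, and Htra1, a secreted protease, -0.34, with adjusted p of 0.801, 0.938 and 0.610.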

How the data were processed

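RNA-seq of tibialis anterior muscle was deposited as 1 table of TPM values for 47643 genes. The authors trimmed and aligned paired-end reads to GRCm38 and made TPM values with CLC Genomics Workbench. Handling of strand and of reads matching several genes is not given in the sources used here. The kit and the sequencer model in the labels (a stranded TruSeq kit) differ from those in the methods. Each sample sums to 1000000 TPM, so depth is unknown.

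log2(TPM + 0.1) was fitted with limma 3.58.1 in R 4.3.3 (1 coefficient for each of the 4 groups, trended variance, 12 residual degrees of freedom) over 10628 genes, with Benjamini-Hochberg adjustment. The study's Kruskal-Wallis and Dunn tests were an alternative. On simulated data with 200 genes changed by 1.5 on the log2 scale, 97% were recovered and 6.28% of calls were false. The simulated noise was independent, no sample stood apart, and the change was larger than most called here. These rates therefore do not describe the calls of this comparison. Single values were compared by exact permutation. Replicate numbers did not pair the samples: same-numbered 24-month WT and UBR4 mKO samples deviated together with r from -0.0503 to 0.181.

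Positions and transcript lengths are from GENCODE vM21 (10293 and 10312 tested genes matched), promoters from RefSeq. Copies were sought as shared words of 50 bases. Figures used Python 3.11.15. Members, lists and tests were chosen with earlier results of these data known. Named were Ubr4 and genes the study names, the 12 largest rises and 10 largest falls among called genes without overlap and with established names, called list members, list members with large changes, genes furthest off in the third UBR4 mKO sample, the largest interactions, and calls kept in every leave-one-out fit. p-values measure the spread between these samples.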

Additional observations from a re-analysis of the deposited data

Results flagged for a closer look

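The 127 tested genes named in the text and the share of mitochondrial transcripts gave 256 groups of 4 values at 24 months. The highest or lowest sample lay far from the other 3, by Dixon's criterion, in 24 groups, and chance gives about 1 in 20, or 12.8. WT-2 was the far sample for Atf3 (39.7 TPM), Nr4a3 (37.3 TPM), Ccdc146 (2.11 TPM), Knop1 (6.50 TPM) and Psme1 (16.8 TPM). The third UBR4 mKO sample was the far one for mt-Nd4l (6960 TPM), Eci1 (205 TPM), Coq7 (24.1 TPM), Gm16534 (1.17 TPM), Krt18 (44.5 TPM) and Cpne2 (25.8 TPM), of which the last 2 genes were chosen for that deviation. Leukocyte genes were far in mKO-2, with Lyz2 at 255 TPM and Cd68 at 14.8 TPM, and in mKO-1, with Ighm at 110 TPM. The other far values were those of Alad (20.7 TPM) and Hat1 (8.66 TPM) in mKO-1, Dkk3 in mKO-4 (1.67 TPM), Hat1 in WT-1 (8.75 TPM), Lyz2 (22.7 TPM), Gm26722 (11.2 TPM), Ncmap (0.488 TPM) and Sepn1 (1.24 TPM) in WT-3, and Krt8 (4.68 TPM) and Gm7293 (20 TPM) in WT-4.

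The effect of genotype differed between the ages, by the limma interaction test, for 31 of these 127 genes, beside 500 of all genes (4.70%). Genes named for the largest interactions or for their change at 24 months are among them, so the count is in part fixed by that choice. The values are log2 fold changes at 24 months minus those at 6 months. The effect was higher at 24 months for Ctxn3 (1.46), Ncmap (1.09), Mgst3 (0.51), Gm10036 (2.15), Gm10282 (1.84) and Gm6166 (5.43, a value that depends on the pseudocount because WT samples are listed at 0). It was lower at 24 months for Acsl3 (-1.17), Knop1 (-0.98), Lrp2bp (-1.29), Nabp1 (-2.70), Plekho1 (-0.82), Serpinb1a (-2.19), Tmem222 (-0.72), Trp63 (-1.63) and Ush1c (-2.29). Among genes of muscle stress and the cytoskeleton it was lower for Krt18 (-4.84), Krt8 (-3.67), Actc1 (-3.85), Rrad (-4.31), Aif1l (-2.32), Itgb1bp2 (-1.0) and Mustn1 (-0.78). It was also lower for Chodl (-1.27), Cpne2 (-2.07), Gdf5 (-2.42), Hmgn2 (-1.31), Mt2 (-3.05), Ces2c (-4.11), Esr1 (-3.94), Gm7293 (-6.33) and Opn1mw (-4.74).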

How the results depend on the processing

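The 67 calls at 24 months, the 500 calls of the interaction and the 42 calls at 24 months that were also called at 6 months depended on the processing. With no filter on low values they were 43, 299 and 24, and with sample weights 254, 2861 and 198. Without a variance trend 33 genes were called at 24 months, 21 of them also at 6 months. The interaction gave 211 calls with median-of-ratios scaling and 214 with the mitochondrial genes left out. The 24-month groups alone gave 8 calls, and Dunn's test 0, with 0 shared with 6 months and 427 genes at an unadjusted p under 0.05, a test that calls a gene only where 78 or more reach its smallest p of 0.000365. Leaving out 1 sample of either age gave 8 to 66 calls at 24 months, 187 to 2491 of the interaction (2491 without 6-month WT-2) and 3 to 49 shared with 6 months. Alternatives chosen after seeing the data gave 130 calls and 73 shared (median-of-ratios scaling without the third UBR4 mKO sample), 22 calls (24-month groups alone without it) and 389 genes more than 1 log2 unit off in that sample, against 667 (median-of-ratios scaling). Pseudocounts of 1 and 0.01 gave 73 and 63 calls. The cause of these shifts was not tested.

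The replicate numbers did not pair the samples. With them as a replicate block, 38 genes were called at 24 months, 34 of them among the 67, 284 by the interaction and 22 also at 6 months.

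Of the 67 calls, 7 were also made in the 24-month groups alone, 33 without a variance trend, 34 with the block, 49 with median-of-ratios scaling and 42 without the third UBR4 mKO sample, and leaving out another 24-month sample left 8 (without WT-3), 10 (WT-4), 12 (mKO-4), 15 (WT-1), 31 (mKO-2), 43 (mKO-1) and 44 (WT-2). Of the 30 called genes of the naming rule, chosen mostly for large changes, 24 lost their call in the 24-month groups alone, 16 with no filter, 12 with the block, 4 with median-of-ratios scaling, 5 without the third UBR4 mKO sample, 24 without WT-3, 22 without WT-4 and 20 without mKO-4. No result changed sign under any alternative among those called. TPM keeps no depth, so no counting error could be given.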

Other observations

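Genes near Ubr4 on chromosome 4 were examined after the data were seen. In the window from 10 Mb before its start to 10 Mb after its end, 191 genes were tested, of which 32 (16.8%) had an unadjusted p under 0.05 at 24 months, beside 10.1% of all genes. Without the third UBR4 mKO sample these shares were 19.4% and 11.3%, and at 6 months 61.3% and 55.5%. Called were 4 genes (2.09%, beside 0.630% of all genes), namely Tmem222, Sepn1, Ncmap and Necap2, with log2 fold changes of -0.58, 0.84, 0.95 and 0.69. The window also held Hmgn2, Rpl11 and Hdac1 (log2 fold changes -0.57, 0.0059 and -0.49, limma adjusted p = 0.146, 0.995 and 0.210). The called genes Gm10282, Gm10036 and Gm10093, on other chromosomes, share 74.0%, 66.4% and 80.4% of their words of 50 bases with these genes, in that order. WT at 24 months was the group apart for Ncmap, as given above, and for Tmem222, Gm10036 and Gm10093. In 24-month WT, 24-month UBR4 mKO and 6-month WT muscles, Tmem222 averaged 17.1, 11.3 and 9.98 TPM. Gm10036 averaged 1.44, 6.78 and 4.71 TPM, and Gm10093 0.41, 1.68 and 1.63 TPM. Their log2 fold changes at 6 months were 0.14, 0.12 and 0.39, none called. Necap2, Sepn1 and Gm10282 were called higher at 6 months as well (0.72, 0.53 and 0.75). Both genotypes carried the floxed alleles, and the part of linked sequence in all these values was not tested.

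When the 24-month groups were fitted alone, Actn2, an actin-crosslinking protein of the sarcomere Z-disc, was called (log2 fold change 0.60, SE 0.073, limma adjusted p = 0.0306) although it was not among the 67 genes.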
